A study of Mus musculus with 4 samples.

Results

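The cyclin-dependent kinase (CDK) inhibitors and the p53 circuit were examined in blood RNA-seq libraries of mice given naringenin (Nar). The genes were chosen by symbol and number 10: the CIP/KIP inhibitors Cdkn1a, Cdkn1b and Cdkn1c, the INK4 inhibitors Cdkn2a, Cdkn2b, Cdkn2c and Cdkn2d, and Trp53, Mdm2 and Rb1. All 10 were among the 17823 genes with values, and 7 of them were among the 5339 genes whose mean level was high enough to test. The mice were C57BL/6, described as adult in the labels and as 12 months old in the study's methods. Nar, a plant flavonoid, was injected into the tail vein at 20 mg/kg for 1 month, which the labels give as 30 days, and control (Ctrl) mice received phosphate-buffered saline. Each group had 2 libraries, Ctrl 1 and Ctrl 3 against Nar 1 and Nar 3, and no allele was altered in either group. Neither the labels nor the methods say whether a library came from 1 mouse or a pool, so the p-values measure only the spread between these libraries, which may be technical.

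CDK inhibitors are small proteins that hold back the kinases driving the cell cycle. The INK4 proteins bind CDK4 and CDK6 and block their pairing with D-type cyclins, whereas the CIP/KIP proteins bind whole cyclin-CDK complexes. When these kinases are held back, the retinoblastoma protein encoded by Rb1 stays bound to E2F transcription factors and the cell does not enter S phase. p53, encoded by Trp53, raises transcription of Cdkn1a (p21) and of Mdm2, whose product marks p53 for degradation. Cdkn2a encodes p16INK4a and, from another first exon and reading frame, p19Arf, which holds back Mdm2. The study measured p16INK4a as a mark of cellular senescence in tissue other than blood, and the question taken up here is how the Cdkn2a level in blood compared with that of the other inhibitors.

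The values are fragments per kilobase of transcript, scaled to the mapped fragments of the library (FPKM), which correct for transcript length and so can be compared between genes. Haemoglobin genes took 92.6% to 96.4% of the summed FPKM in the 4 libraries, the mark of whole blood. In genes with 1 annotated transcript, FPKM times length in kilobases clustered at 0.0427 to 0.0438, with 33 to 35 genes per library in the bin around it against 6 to 11 in the bins on either side. Read as 1 fragment, this step gives about 22900000 to 23400000 fragments per library. Fragment numbers derived from that step are approximate, since the transcript lengths the authors used are not given in the sources used here. Differences are log2(FPKM + 0.1) in Nar minus Ctrl, tested with limma across all 5339 genes, and they understate the change of genes at low levels. The median difference over all tested genes was -1.07, and after scaling each library by the median of its gene ratios it was -0.06, so the differences of the 7 tested inhibitor and p53 genes are also given relative to that general shift. The markers of neutrophils, which are abundant among blood leukocytes, summed to 1746 and 1442 FPKM in the Ctrl libraries and to 106 and 165 FPKM in the Nar libraries, and all 12 tested markers fell. With libraries scaled by the median of ratios, their median difference was -2.57. Under that scaling all 12 were lower at an unadjusted p under 0.05, beside 14.0% of all tested genes in either direction. In limma 3 passed at an adjusted p under 0.05 (Ngp, Camp and Ltf), beside 0.356% of all tested genes called lower. Camp and Ltf had Nar means of 0.45 and 0.485 FPKM and reached the filter of 0.5 FPKM only through the Ctrl libraries. On the deposited values the other 10 markers were all called lower, beside 31.9% of all genes with a Nar mean at or over the filter. In bulk blood, fewer cells of a type and less RNA per cell cannot be told apart.

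Upstream sequences of Cdkn2a, Cdkn1a and Mdm2 are shown because Cdkn2a has 2 separate starts counted in 1 row, and because Cdkn1a and Mdm2 are textbook p53 targets that were both lower with Nar. They come from RefSeq (build GRCm38.p6), are written 5′ to 3′ on the gene's strand, and end at the annotated start of transcription. Capitals mark matches on either strand to the GC box (GGGCGG), the CCAAT box (CCAAT), the E2F site (TTTCCCGC or TTTGGCGC) or the p53 site, a pair of decamers with a spacer. The Cdkn2a sequences lie before the p19Arf start at chr4:89294654-89294869 and before the p16INK4a start at chr4:89282193-89282442, both on the minus strand. The Cdkn1a sequence is at chr17:29090729-29090975 on the plus strand, and the Mdm2 sequence at chr10:117710759-117711008 on the minus strand.
Cdkn2a, p19Arf start: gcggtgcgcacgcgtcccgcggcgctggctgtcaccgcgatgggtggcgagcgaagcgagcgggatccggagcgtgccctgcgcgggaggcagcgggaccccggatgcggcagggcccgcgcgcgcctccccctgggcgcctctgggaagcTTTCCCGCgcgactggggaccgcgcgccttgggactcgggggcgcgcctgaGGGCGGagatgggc
Cdkn2a, p16INK4a start: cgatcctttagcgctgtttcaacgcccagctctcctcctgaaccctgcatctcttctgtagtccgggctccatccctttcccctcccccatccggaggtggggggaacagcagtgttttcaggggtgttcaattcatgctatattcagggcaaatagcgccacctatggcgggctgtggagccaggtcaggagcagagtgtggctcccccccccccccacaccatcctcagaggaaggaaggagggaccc
Cdkn1a, upstream start: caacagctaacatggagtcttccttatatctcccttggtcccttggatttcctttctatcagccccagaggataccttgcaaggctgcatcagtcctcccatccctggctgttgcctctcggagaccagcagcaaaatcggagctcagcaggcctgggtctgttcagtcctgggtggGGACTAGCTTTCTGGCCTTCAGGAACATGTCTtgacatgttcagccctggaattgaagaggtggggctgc
Mdm2, upstream start: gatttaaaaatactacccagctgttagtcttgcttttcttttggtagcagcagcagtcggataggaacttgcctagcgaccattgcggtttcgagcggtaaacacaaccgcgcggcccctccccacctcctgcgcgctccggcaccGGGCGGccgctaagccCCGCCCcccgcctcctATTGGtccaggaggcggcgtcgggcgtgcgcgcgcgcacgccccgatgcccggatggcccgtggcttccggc

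Before the p19Arf start, an E2F match and a GC box were found, whereas before the p16INK4a start none of the searched motifs was found. The Cdkn1a sequence held 1 p53 match, whereas the window before the second Cdkn1a start, not printed, held 2 GC boxes and 0 p53 matches. The Mdm2 sequence held 2 GC boxes, 1 CCAAT box and 0 p53 matches. No other part of Mdm2 was searched, so these 0 matches do not show that the gene lacks a p53 site. Over the 32851 promoters of the same table, searched in windows of 250 bases, a GC box was in 32.7%, a CCAAT box in 33.9%, an E2F match in 1.3% and a p53 match in 0.064%. These matches are letters in a window and not measured binding. Entries for 8 of the 10 genes were matched, and Cdkn1c and Rb1 were not among them.

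Cdkn2a was among the lowest inhibitors in blood, with Cdkn1c and Cdkn2b. It was listed at 0 FPKM in Ctrl 1 and in both Nar libraries, and at 0.16 FPKM in Ctrl 3. The single value above 0 corresponds to about 3 fragments, and a level listed at 0 allows up to 3 fragments, or about 0.143 to 0.154 FPKM, counting error only. No difference between Nar and Ctrl was therefore detectable at this depth, and the gene was not tested. Cdkn2a (NCBI Gene 12578) lies at chr4:89274471-89294653 on the minus strand (GRCm38, GENCODE vM21), and its p16INK4a and p19Arf transcripts share 575 exonic bases of 852 and 895. The single row of the table covers both, so the value does not separate p16INK4a from p19Arf.

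Cdkn2d, Cdkn1b and Cdkn2c exceeded Cdkn2a and the level that a listed 0 allows in all 4 libraries, and Cdkn1a did in both Ctrl libraries. Cdkn1a in the Nar libraries, at 0.07 FPKM, lay under that limit. Cdkn2b and Cdkn1c rest on 0 to 7 fragments per library and were not resolved from Cdkn2a. On the log2(FPKM + 0.1) scale, Cdkn2a was below the median of the other 6 by a level difference of -3.39 and -1.72 in the Ctrl libraries and of -2.18 and -1.97 in the Nar libraries. The mean of these level differences was -2.31 ± 0.74 (SD, n = 4 libraries), and since Cdkn2a is mostly at 0 its size is set by the pseudocount of 0.1. It was -0.64 with a pseudocount of 1 and -4.63 with 0.01.

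In the Ctrl libraries the mean levels ran from Cdkn2d at 9.43 FPKM through Cdkn1b at 4.41, Cdkn1a at 1.1, Cdkn2c at 0.69, Cdkn2b at 0.125 and Cdkn2a at 0.08 to Cdkn1c at 0.035. The libraries of Cdkn1a and Cdkn2c overlapped, as did those of Cdkn2b and Cdkn2a and those of Cdkn2a and Cdkn1c, so these neighbours did not differ beyond their spread. In the Nar libraries the order was Cdkn2d at 2.64 FPKM, Cdkn1b at 1.255, Cdkn2c at 0.77, Cdkn2b at 0.105 and Cdkn1a at 0.07, with Cdkn2a and Cdkn1c at 0. Cdkn1a lay below Cdkn2c in both Nar libraries, whereas they overlapped in the Ctrl libraries. The Nar levels of Cdkn1a, Cdkn2b, Cdkn2a and Cdkn1c rest on 0 to 4 fragments per library, and their order was not resolved.

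**Figure D1:**
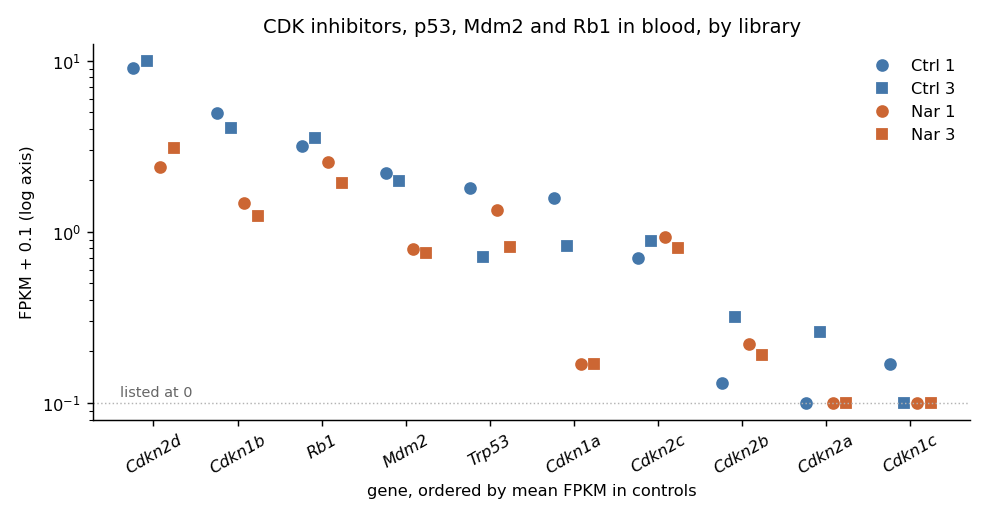
FPKM + 0.1 (log axis) of the 10 genes in each of the 4 libraries, with 1 point per library and points on the bottom line for libraries listed at 0. Cdkn2d was the highest inhibitor in each library, and Cdkn2a was above 0 in Ctrl 3 alone, at 0.16 FPKM.

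Among the INK4 genes, Cdkn2d (p19INK4d) fell. The Ctrl libraries had 9.01 and 9.85 FPKM, and the Nar libraries 2.28 and 3.00 FPKM (numbers 1 and 3, the order used from here on). Neither Nar library came near a Ctrl library, and in 78.3% of all tested genes both Nar libraries were below both Ctrl libraries. The ratio of Ctrl to Nar means was 3.57. The log2 difference was -1.81 ± 0.44 (SE, n = 2 per group; limma adjusted p = 0.0206). Relative to the median of all tested genes it was -0.74. With libraries scaled by the median of ratios the difference was -0.72 ± 0.43 (SE), with a limma adjusted p of 0.551. The 3 genes whose profile over the 4 libraries was nearest to that of Cdkn2d were Scnm1, Sf3b5 and Phf12, at root-mean-square distances of 0.0322, 0.0355 and 0.0409 on the log2 scale.

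Cdkn2c (p18INK4c) was the tested inhibitor that did not fall. The Ctrl libraries had 0.60 and 0.78 FPKM and the Nar libraries 0.83 and 0.71 FPKM, so the groups overlapped. The log2 difference was 0.15 ± 0.36 (SE, n = 2 per group; limma adjusted p = 0.728). It sat at percentile 95.3 of all tested genes and 1.22 above their median. With libraries scaled by the median of ratios the difference was 1.12 ± 0.33 (SE), with a limma adjusted p of 0.177. Cdkn2b (p15INK4b), the neighbour of Cdkn2a on chromosome 4, was at 0.03 and 0.22 FPKM in the Ctrl libraries (about 1 and 7 fragments) and at 0.12 and 0.09 FPKM in the Nar libraries (about 4 and 3 fragments), too low to test.

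Among the tested CIP/KIP genes, Cdkn1a (p21), which halts the cycle after p53 activation, had the lowest Nar levels relative to Ctrl. The Ctrl libraries had 1.47 and 0.73 FPKM, and each Nar library had 0.07 FPKM. Both Nar libraries were far below both Ctrl libraries, and the difference was -2.75 ± 0.52 on the log2 scale (SE, n = 2 per group; limma adjusted p = 0.0105). Relative to the median of all tested genes it was -1.68. With libraries scaled by the median of ratios the difference was -1.99 ± 0.51 (SE), with a limma adjusted p of 0.1345. Cdkn1a reached the filter of 0.5 FPKM only through its Ctrl libraries, so a gene at this Nar level had to be lower with Nar to be tested at all, and its p-value carries that choice. From approximate fragments and the longest transcript, 106 in Ctrl against 6 in Nar gave a ratio of 17.7 (95% exact interval 7.85 to 49.2), and with the shortest transcript 46 against 3 gave 15.3 (4.93 to 77.1), counting error only. The exons of Cdkn1a overlap those of AC167363.2 on the other strand over 273 bases, and without strand in the protocol their reads cannot be told apart.

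Cdkn1b (p27), which binds cyclin E and cyclin A complexes with CDK2, fell as well. Levels were 4.86 and 3.96 FPKM with saline and 1.38 and 1.13 FPKM with Nar, and no Nar library reached a Ctrl library. The log2 difference was -1.73 ± 0.39 (SE, n = 2 per group; limma adjusted p = 0.0174), and -0.66 relative to the median of all tested genes. After the median-of-ratios scaling it was -0.67 ± 0.36 (SE), with a limma adjusted p of 0.480. Cdkn1c (p57), an imprinted inhibitor active mainly in development, was at 0.07 FPKM in Ctrl 1 and at 0 in the other libraries, and was not tested.

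Trp53 itself showed no such difference. The Ctrl libraries, at 1.70 and 0.61 FPKM, lay on either side of the Nar libraries, at 1.24 and 0.72 FPKM, so the groups overlapped. Its log2 difference was -0.11 ± 0.49 (SE, n = 2 per group; limma adjusted p = 0.850), which was 0.96 above the median of all tested genes. The 3 nearest profiles were those of Ablim1, Bank1 and Cxcr3, at root-mean-square distances of 0.117, 0.122 and 0.134.

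Mdm2, the ubiquitin ligase that marks p53 for degradation and is itself a p53 target, fell. It stood at 2.10 and 1.88 FPKM in the Ctrl libraries and at 0.69 and 0.65 FPKM in the Nar libraries, with no overlap between groups. The log2 difference was -1.44 ± 0.34 (SE, n = 2 per group; limma adjusted p = 0.0193), and -0.37 relative to the median of all tested genes. After the median-of-ratios scaling it was -0.42 ± 0.31 (SE), with a limma adjusted p of 0.67. Rb1, the pocket protein on which the inhibitors converge, had 3.08 and 3.42 FPKM in the Ctrl libraries and 2.46 and 1.82 FPKM in the Nar libraries. The Rb1 groups did not overlap, but its difference of -0.59 ± 0.40 (SE, n = 2 per group; limma adjusted p = 0.219) did not pass, and it was 0.48 above the median of all tested genes. Rb1 exons overlap those of Lpar6 and Rcbtb2 on the other strand over 896 bases.

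**Figure D2:**
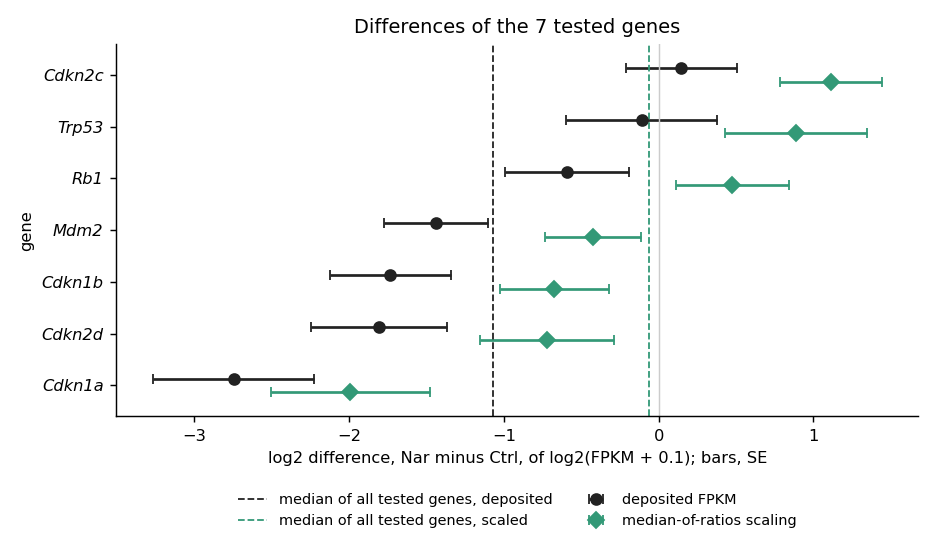
Difference between Nar and Ctrl libraries in log2(FPKM + 0.1) with its standard error (bars, limma, n = 2 per group) for the 7 tested genes, on the deposited values and after median-of-ratios scaling, with the median of all tested genes marked for each. On the deposited values Cdkn1a lay lowest at -2.75 and Cdkn2c highest at 0.15.

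In all, 4 of the 7 tested genes were lower with Nar (Cdkn1a, Cdkn1b, Cdkn2d and Mdm2) at a limma adjusted p under 0.05, against 39.5% of all tested genes in that direction. Leaving out genes whose Nar mean was under the filter, Cdkn1a among them, 3 of 6 were lower, against 31.9% of 3778 genes. None was higher in limma, also at an unadjusted p under 0.05, where 0.187% of all tested genes were higher at the adjusted threshold. In 5 of 7 both Nar libraries were below both Ctrl libraries, against 78.3% of all tested genes, and in 0 of 7 they were above, against 1.27%. The median difference of the 7 was -1.44, beside -1.07 over all tested genes. With libraries scaled by the median of ratios no gene of the 7 was called in limma in either direction, where 0.356% of all tested genes were called lower and 0.112% higher. Of the 7, 2 had an unadjusted p under 0.05 (Cdkn1a lower and Cdkn2c higher), beside 14.0% of all tested genes. Under that scaling the differences of Trp53 and Rb1 turned positive, at 0.89 and 0.47. The count of 4 was 0 without Ctrl 1 or without Ctrl 3. Without Nar 1 or without Nar 3 it was 1, and that gene was Cdkn1a. The part of the neutrophil markers in these differences was not tested.

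Levels of 1 inhibitor against another within a library do not depend on how whole libraries are scaled. The 7 inhibitors summed to 16.04 and 15.7 FPKM in the Ctrl libraries and to 4.68 and 5.0 FPKM in the Nar libraries. Cdkn2d made up 56.2% and 62.7% of the summed inhibitor FPKM in the Ctrl libraries and 48.7% and 60.0% in the Nar libraries. Cdkn2c took 3.74% and 4.97% in the Ctrl libraries and 17.7% and 14.2% in the Nar libraries. Cdkn1a took 9.16% and 4.65% against 1.5% and 1.4%. The share of Cdkn2c was higher in both Nar libraries while its own level overlapped between groups, the sum being lower mainly through Cdkn2d and Cdkn1b. The share of Cdkn1a was lower in both Nar libraries, and the shares of Cdkn2d overlapped. Cdkn2a took 1.02% in Ctrl 3 and 0% elsewhere.

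**Figure D3:**
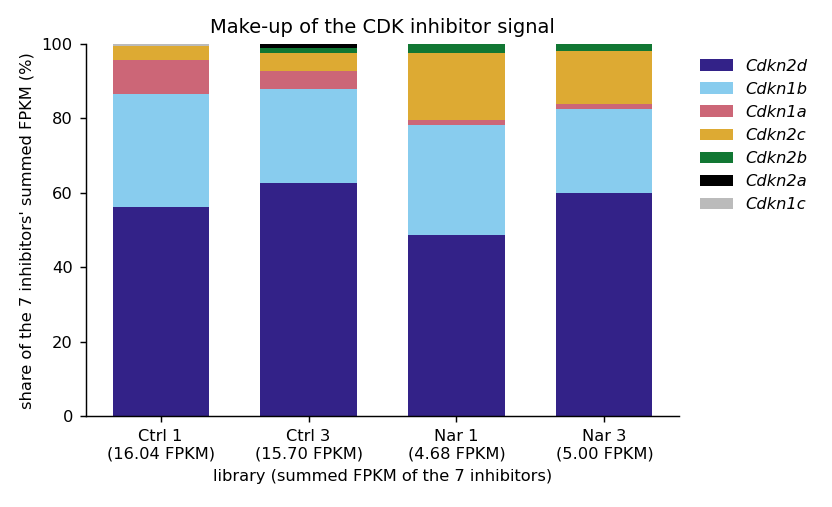
Share (percent) of each of the 7 CDK inhibitors in their summed FPKM, with 1 stacked bar per library. Cdkn2d and Cdkn1b fill most of each bar, and the Cdkn2c segment is 3.74% and 4.97% in the Ctrl libraries and 17.7% and 14.2% in the Nar libraries.

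Ratios of pairs of genes within each library were chosen after the values were seen. Cdkn1a over Trp53 was 0.865 and 1.20 in the Ctrl libraries and 0.0565 and 0.0972 in the Nar libraries. Both Nar ratios were below both Ctrl ratios. Cdkn2c over Cdkn2d was 0.0666 and 0.0792 in the Ctrl libraries and 0.364 and 0.237 in the Nar libraries. Mdm2 over Trp53 was 1.24 and 3.08 against 0.557 and 0.903. Cdkn2d over Cdkn1b, 1.85 and 2.49 against 1.65 and 2.65, overlapped. With 2 libraries per group, the smallest two-sided exact permutation p is 0.33, so that test cannot reach 0.05 for any of these ratios, and they are given as a description.

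The partners and regulators of these genes were followed in 7 lists of 103 genes, 49 of them tested. Of these, 20 were lower with Nar at a limma adjusted p under 0.05, or 40.8%, beside 39.5% of all tested genes, and none was higher, also at an unadjusted p under 0.05. Of the 49, 17 reached the filter only through the Ctrl libraries, 12 of the 20 called among them, and of the other 32 genes 8 were lower, or 25.0%, beside 31.9% of all tested genes with such a Nar mean. The median difference of the 49 was -0.87, and none was called in limma once the libraries were scaled by the median of ratios, where 3 were lower and 4 higher at an unadjusted p under 0.05, or 14.3%, near the 14.0% of all tested genes.

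Among the 10 tested p53 regulators 6 fell, with a median of -1.32 (-0.34 when scaled by the median of ratios). Ep300, an acetyltransferase that modifies p53, was at 1.72 and 1.38 FPKM in the Ctrl libraries and 0.43 and 0.38 in the Nar libraries. Mdm4, the partner of Mdm2, was at 2.17 and 1.13 against 0.53 and 0.42 FPKM, and Cop1, another p53 ubiquitin ligase, at 1.34 and 1.36 against 0.48 and 0.35 FPKM. These 3 genes, and Kat5 among the other calls, reached the filter only through the Ctrl libraries, and of the 5 regulators with a Nar mean at or over it 2 fell, or 40.0%, beside 31.9% of all such genes. The median of these 5 was -0.98, beside -0.99 over all such genes. Of the 10 tested p53 targets other than Cdkn1a and Mdm2, 3 fell, beside 39.5% of all tested genes. The median of the 10 was -0.76 (0.26 under the median-of-ratios scaling). Fas among the 3 reached the filter only through the Ctrl libraries, and of the 8 targets with a Nar mean at or over it 2 fell, or 25.0%, beside 31.9% of all such genes. The 3 targets were Trp53inp1, a p53 cofactor (limma adjusted p = 0.0141), Btg2, an antiproliferative gene (0.0188), and Fas, the death receptor (0.0267).

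Regulators of the Cdkn2a-Cdkn2b locus are mainly Polycomb proteins that silence it, the demethylase that opens it and the transcription factors Ets1, Ets2 and Id1. Of 8 tested, 5 fell, but these 5 and 2 others reached the filter only through the Ctrl libraries, so nothing is read from the count or from the list median of -1.47. Ets1, the other gene tested, was not called. Id1, which holds back Ets factors at the p16INK4a start, was at 1.42 and 0.91 FPKM in the Ctrl libraries and at 0 and 0.05 in the Nar libraries. Ets2 was at 1.68 and 2.72 against 0.25 and 0.14 FPKM, a log2 difference of -2.95. Kdm6b, the demethylase, was at 1.76 and 1.08 against 0.21 and 0.13 FPKM, a log2 difference of -2.47. Beside these regulators, Cdkn2a itself was at 0 in 3 of the 4 libraries and Cdkn2b stayed at or under 0.22 FPKM.

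Of the 5 tested CDKs and cyclins, Cdk4, the target of the INK4 proteins, fell, from 1.45 and 1.09 FPKM in the Ctrl libraries to 0.64 and 0.45 in the Nar libraries (limma adjusted p = 0.0435). Its difference of -1.09 lay at about the median of all tested genes and was -0.11 after the median-of-ratios scaling (limma adjusted p = 0.973). The 1 call of 5, or 20.0%, stands beside 31.9% of all genes with a Nar mean at or over the filter, a difference that was not tested. In the Rb and E2F list 3 of 5 fell: Rbl2, a pocket protein like Rb1, Tfdp1, the E2F dimer partner, and E2f4, the E2F that mainly represses, with differences of -1.15, -1.49 and -1.06. Rbl2 and E2f4 lay near the median of all tested genes, -1.07. Rbl2 and Tfdp1 reached the filter only through the Ctrl libraries, and of the other 3 genes of the list 1 fell, or 33.3%, near the 31.9% of all tested genes with a Nar mean at or over the filter.

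**Figure D4:**
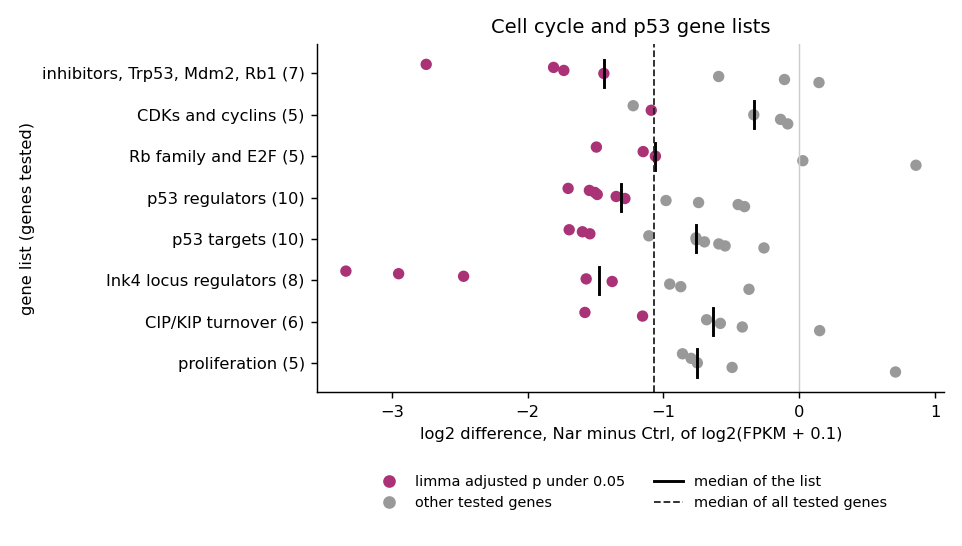
Difference between Nar and Ctrl libraries in log2(FPKM + 0.1) for each tested gene of the inhibitor and p53 group and of the 7 lists, with the number tested in brackets, calls at a limma adjusted p under 0.05 in colour and list medians marked. The dashed line marks the median of all tested genes at -1.07. Of the 8 tested regulators of the Ink4 locus, 7 reached the level filter only through the Ctrl libraries.

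Markers of the cells in blood moved unevenly beside these genes. Of 12 tested erythroid markers none passed in limma in either direction (1 higher at an unadjusted p under 0.05), with a median of 0.47 and sums of 8095 to 10028 FPKM in the 4 libraries. Monocyte markers summed to 93.4 and 98.2 FPKM in the Ctrl libraries and 28.7 and 10.8 in the Nar libraries. Of 8 tested, 4 were called lower, beside 39.5% of all tested genes. Of the 7 with a Nar mean at or over the filter 4 were called lower, or 57.1%, beside 31.9% of all such genes. B cell markers, none of 6 called at an adjusted or unadjusted p under 0.05, summed to 37.3 and 28.8 against 28.2 and 29.3 FPKM. Sums of T cell markers (9.84 and 7.44 against 6.39 and 4.48 FPKM) and NK cell markers (21.2 and 18.5 against 9.87 and 4.82 FPKM) were lower in both Nar libraries. The same held for 78.3% of all tested genes. In limma 0 of 7 T cell and 1 of 6 NK cell genes were called lower (2 and 3 at an unadjusted p under 0.05). Of the tested genes, 2 T cell and 3 NK cell markers reached the filter only through the Ctrl libraries. The T cell median was -0.75 and the NK cell median -1.24, beside -1.07 over all tested genes. Platelet markers summed to 712 and 2250 against 622 and 465 FPKM, none of 8 called (1 lower at an unadjusted p under 0.05). With libraries scaled by the median of ratios, the erythroid median was 1.57 and no erythroid marker was called in limma. At an unadjusted p under 0.05, 11 of 12 were higher, beside 14.0% of all tested genes in either direction. Under that scaling the B cell, T cell and NK cell medians were 0.65, 0.23 and -0.33. Monocyte calls went from 4 to 1 and NK cell calls from 1 to 0, beside 0.356% of all tested genes called lower. No marker was at 0 in all 4 libraries. The part of these cells in the levels of Cdkn1a, Cdkn1b, Cdkn2d and Mdm2 was not tested.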

How the data were processed

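Blood RNA of 4 mouse libraries (Ctrl 1, Ctrl 3, Nar 1, Nar 3) was analysed from 1 table. The deposited values are FPKM that the authors rounded to 2 decimals. The submitters' processing notes name TopHat2, Cufflinks and GRCm38, with versions not given in the sources used here, while the study's methods name bowtie-2. The study called genes with DEGseq, a count method that cannot be repeated on FPKM. Of 23136 genes listed, 5313 had no values.

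Values were taken as log2(FPKM + 0.1). The 5339 genes with a mean of at least 0.5 FPKM were fitted with limma 3.58.1 (R 4.3.3, trend) and p-values adjusted by Benjamini-Hochberg, called under 0.05. The fit was tested on simulated data. Gene models were GENCODE vM21. Fragments were approximated from the step of low values. The genes named were all 10 inhibitor and p53 genes, up to 3 called genes with the largest difference per list (where none passed, the 2 highest) and nearest profiles. The genes and lists were chosen with earlier results of these data known. Alternatives were the pseudocount, the filter, 2 other scalings, a replicate block and leaving out each library.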

Additional observations from a re-analysis of the deposited data

How the results depend on the processing

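The count of 4 genes lower with Nar was unchanged with a pseudocount of 1 or 0.01. It was 0 without the level filter, 0 after median-of-ratios scaling and 0 with haemoglobin removed. It did not hold when any 1 library was left out, where a lone library is assumed to vary like the other group. No gene was called higher under any of these. The count of 20 lower list genes was 15 with a pseudocount of 1, 0 without the filter, 0 after median-of-ratios scaling and 3 with haemoglobin removed. It was also lower with any 1 library left out. Over all tested genes, 2110 were lower, against 19 after median-of-ratios scaling, 267 with haemoglobin removed and 0 without the filter. Leaving out any 1 library, Ctrl or Nar, also lowered this count. The level of Cdkn2a against the other inhibitors, -2.31, was -0.64 with a pseudocount of 1 and -4.63 with 0.01. The causes of these changes were not tested.

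Same-numbered libraries did not deviate together (correlation -0.153), so the numbers are not taken to pair the libraries. Adding a replicate block to the fit, 4 genes and 19 list genes were lower. With the numbers crossed, chosen after seeing the data, 4 and 23 were lower and 3211 of all tested genes. At this depth, Cdkn2a, Cdkn2b and Cdkn1c rest on at most 7 fragments per library.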

Other observations

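The proliferation list, of genes that dividing cells express, had no call in limma among its 5 tested genes in either direction, also at an unadjusted p under 0.05. Of all tested genes 39.5% were called lower and 0.187% higher. The rest of its 16 genes were too low to test, so the list as a whole is not read as unchanged. In these low genes, except Aurka and Bub1, both Nar libraries lay below both Ctrl libraries, as in 78.3% of all tested genes. The highest members of the proliferation list were Ube2c and Pcna. Ube2c, which marks mitotic proteins for degradation, was at 42.1 and 72.2 FPKM in the Ctrl libraries and 123 and 65.8 in the Nar libraries (limma adjusted p = 0.283). Pcna, the DNA clamp of replication, was at 1.84 and 2.53 against 1.65 and 0.93 FPKM (limma adjusted p = 0.142). Of 6 tested genes of CIP/KIP protein turnover 2 fell, Cul1 and Rbx1, the scaffold and RING subunits of the ubiquitin ligase that degrades p27, with differences of -1.58 and -1.15 beside a median of -1.07 over all tested genes. All 6 had a Nar mean at or over the filter, and the share of 33.3% was near the 31.9% of all such genes.

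Outside the rule for named genes, and chosen after their values were seen, E2f2 and Tfdp2 were the highest of the Rb and E2F list. E2f2 was at 18.2 and 47.0 FPKM in the Ctrl libraries and 27.7 and 32.1 in the Nar libraries, and Tfdp2, a dimer partner of E2F proteins, at 20.4 and 53.5 against 67.2 and 53.6 FPKM. Neither passed in limma (adjusted p = 0.970 and 0.229). E2f1, the family member most often studied, was at or under 0.63 FPKM in each library and was not tested.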
